A study of Homo sapiens with 6 samples.

Results

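The genes described here encode insulin-like growth factor (IGF) binding proteins, the IGF-like ligand IGFL1 and the receptors of the IGF system, in HaCaT cells, an immortalised line of human keratinocytes. They are the 8 rows, of 27945 genes measured, whose symbol is IGFL1, IGFBP2, IGFBP3, IGFBP4, IGFBP6, IGFBP7, IGF1R or IGF2R, and all 8 were found. They were selected on measured values of these same libraries: IGFL1 was known to differ with IL-1α in both genotypes and between genotypes under IL-1α, and IGFBP3 between genotypes under IL-1α. Those differences are therefore described below without a p-value. Where limma calls on them are counted, the calls are no test of them. The choice was by symbol and had no threshold.

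RNA was sequenced from 4 groups in 6 libraries. Wild-type (WT) HaCaT cells received PBS (1 library) or IL-1α in PBS (2 libraries), and HaCaT cells labelled MAPK14-null or p38a-KO, for loss of the stress kinase p38α, received PBS (1 library) or IL-1α (2 libraries), each for 4 h. All cells were grown in DMEM with serum and antibiotics. The labels do not give the dose of IL-1α, the edit made in MAPK14, whether the knockout is 1 clone, or whether replicates came from separate cultures. Each p-value therefore measures only a spread between libraries. That spread was estimated from the 2 IL-1α groups and from other genes, because each PBS group has 1 library.

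IGFs drive growth and survival by activating the tyrosine kinase IGF1R. Binding proteins (IGFBPs) secreted around cells carry IGFs, hold them away from the receptor and release them when cut by proteases, while IGF2R takes up IGF2 and sends it to lysosomes. In skin, keratinocytes respond to IGFs that come largely from dermal fibroblasts, and IGFBP3 is made by keratinocytes of the proliferating layer. IGFL1 is a small secreted protein with a cysteine arrangement like that of the IGFs, known for its high level in psoriatic skin; its known receptor is IGFLR1, not IGF1R.

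Recovered depth ran from 16294033 to 34967639 reads a library, with the deepest the knockout given PBS. MAPK14 itself lay at 13.3 to 14.8 RPKM (reads scaled to exon length and to the size of the library) in the wild-type and at 7.41 to 11.3 RPKM in the knockout libraries; it was lower in all 3 of these, and its RNA was still present. All 8 keratinocyte markers checked were present, with a summed level of 3879 to 4395 RPKM in wild type and 2743 to 3109 RPKM in knockout. KRT14 (1445 to 1878 RPKM against 947 to 1171 RPKM) was lower in all 3 knockout libraries. So were SFN (993 to 1583 RPKM against 576 to 695 RPKM) and DSG3 (73.0 to 79.6 RPKM against 29.7 to 69.4 RPKM). DSG3 was lowest in replicate 2 of the knockout with IL-1α. Of all genes tested, 8.86% showed this order of the genotypes. TP63 (26.6 to 35.9 RPKM against 34.7 to 51.1 RPKM) and ITGA6 (122 to 184 RPKM against 152 to 210.1 RPKM) overlapped. The values of KRT5, CDH1 and PERP overlapped too. Of 7 fibroblast markers 2, COL1A1 and LUM, reached 1 RPKM (sums of 1.67 to 2.59 RPKM in wild type and 0.811 to 1.29 RPKM in knockout). LUM (0.613 to 1.19 RPKM against 0 to 0.016 RPKM) and DCN (0.130 to 0.491 RPKM against 0 RPKM) were lower in all 3 knockout libraries. COL3A1 (0.033 to 0.050 RPKM against 0.059 to 0.229 RPKM) and PDGFRB (0 RPKM against 0.006 to 0.020 RPKM) were higher in all 3. COL1A1 overlapped (0.825 to 0.875 RPKM against 0.486 to 1.20 RPKM), and PDGFRA and COL1A2 were at 0 in 5 of the 6 libraries. Of 3 endothelial markers only CDH5 reached 1 RPKM and PECAM1 was at 0 throughout; the sums ran from 1.82 to 11.96 RPKM in wild type and 1.90 to 10.5 RPKM in knockout, with 10.5 and 1.90 RPKM in replicates 1 and 2 of the knockout with IL-1α. No melanocyte marker reached 1 RPKM, and of 4 leukocyte markers only CD68 did (sums of 6.31 to 14.8 RPKM in wild type, 4.88 to 7.63 RPKM in knockout). The part of these markers in the results below was not tested. In bulk RNA, fewer cells of a type and less RNA per cell cannot be told apart.

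Set in order of their mean RPKM over the 6 libraries, a per-length scale, the genes ran IGFBP3, IGFBP6, IGFL1, IGFBP7, IGF2R, IGF1R, IGFBP4 and IGFBP2. IGFBP3 was among the most abundant transcripts of the cells, at rank 88 of 27945 in wild type on PBS and at ranks 31 and 28 on IL-1α. In knockout cells it stood at rank 324 without and at ranks 229 and 215 with IL-1α. Over the 6 libraries the ranges of IGFBP3 (143 to 945 RPKM) and IGFBP6 (133 to 247 RPKM) overlapped. So did those of IGF2R (8.02 to 16.1 RPKM) and IGF1R (8.42 to 17.7 RPKM), and neither pair was ordered beyond that pooled spread. In wild type alone IGFBP3, at 613 to 945 RPKM, lay above every value of IGFBP6. IGFL1, from 1.31 to 95.3 RPKM, spanned the ranges of IGFBP7, IGF2R, IGF1R and IGFBP4. IGFBP7 (22.7 to 39.6 RPKM) lay above both receptors in every library, the receptors lay above IGFBP4 (2.47 to 6.22 RPKM), and IGFBP2 was lowest at 0.109 to 0.780 RPKM. Differences below are on the scale log2(RPKM + 0.5) and come from limma, fitted to the 12925 genes that reached 1 RPKM in at least 1 library; 7 of the 8 genes did, and IGFBP2 was not tested.

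**Figure D1:**
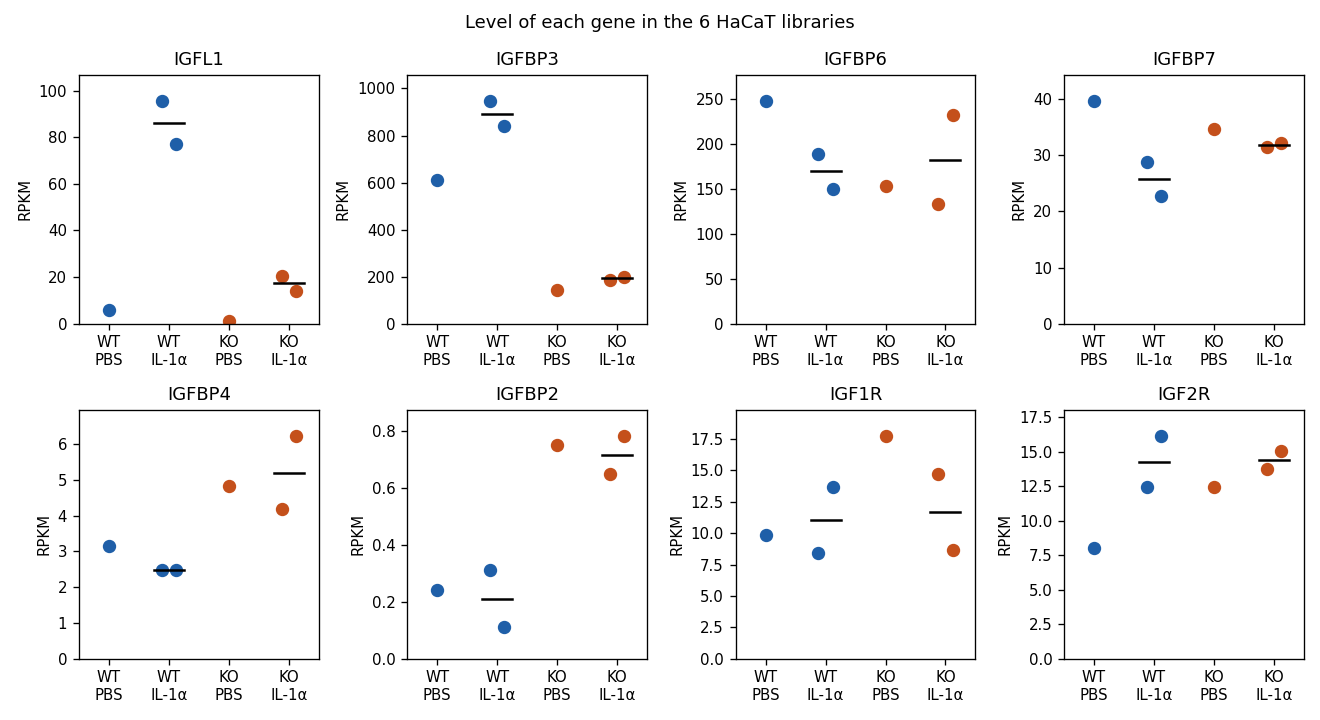
RPKM (linear axis from 0) of each of the 8 genes in wild-type (blue) and knockout (orange) HaCaT libraries with PBS or IL-1α; points are libraries and black lines the mean of 2 IL-1α libraries. IGFL1 is highest in the IL-1α libraries of wild type (77.0 and 95.3 RPKM), and IGFBP3 is lower in all 3 knockout libraries than in any wild-type library.

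The ligand-like gene of the set, IGFL1, was higher with IL-1α in both genotypes and lower in knockout than in wild type in either state. IGFL1 lies on the plus strand of chromosome 19, bases 46733009 to 46734500 (hg19), with 763 bases of exon. Wild-type cells on PBS gave 5.80 RPKM (74 reads), and those on IL-1α gave 95.3 RPKM (1185 reads) and 77.0 RPKM (1089 reads). Knockout cells gave 1.31 RPKM (35 reads) on PBS, and 20.7 RPKM (345 reads) and 14.0 RPKM (317 reads) on IL-1α. Both stimulated libraries were far above the unstimulated one in each genotype, and the knockout and wild-type IL-1α libraries did not overlap. The stimulated knockout still exceeded the unstimulated wild type. The mean under IL-1α was 86.2 ± 12.9 RPKM (SD, n = 2) in wild type, 14.9 times the unstimulated level, and 17.3 ± 4.74 RPKM (SD, n = 2) in knockout, 13.2 times its own unstimulated level.

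On the log2(RPKM + 0.5) scale the IL-1α difference of IGFL1 was 3.77 ± 0.29 (SE) in wild type and 3.27 ± 0.29 (SE) in knockout. Under IL-1α the knockout differed from wild type by -2.30 ± 0.23 (SE), a level 4.98 times lower, and without stimulation by -1.80, a ratio of reads of 4.42 in favour of wild type (exact 95% interval 2.92 to 6.81, counting error only). The genotype by IL-1α interaction, the test of whether the responses differed, was -0.50 ± 0.40 (SE), with a limma adjusted p of 0.966. That p does not show the responses to be equal. Transcripts under 1 kb, a class of 1656 that holds IGFL1 and IGFBP6, had a median of -0.53 in the wild-type response and of -0.51 in the unstimulated genotype difference, against -0.14 and -0.01 over all 12925 genes. With a per-library trend on length removed, the wild-type response of IGFL1 was 4.32, the unstimulated genotype difference -1.32 and the interaction -0.998. That was the most negative value of the interaction over the alternatives. With 0.1 or 1 in place of the 0.5 added to RPKM the interaction was -0.27 or -0.71, and with voom weights -0.22.

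IGFL1 belongs to a cluster of related genes on chromosome 19, and the others were almost silent in the same libraries. IGFL2, 68.4 kb away, had at most 3 reads in any library. IGFL3 had 0 reads in all 6. IGFL4, 189 kb away, had at most 8 reads, in the unstimulated knockout library. The receptor gene IGFLR1 lay near 1 RPKM: 0.945 RPKM on PBS and 0.514 and 0.502 RPKM on IL-1α in wild type, and 1.04, then 0.977 and 1.125 RPKM in knockout. These rest on 9 to 39 reads each. The IGFLR1 difference of knockout from wild type under IL-1α was 0.62 ± 0.25 (SE; limma adjusted p = 0.331).

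The sequences just upstream of the start of IGFL1 and of IGFBP3 are printed because these were the members at least 2-fold lower in knockout both with and without IL-1α. They are the 250 bases before the RefSeq start, on GRCh38.p14 and not on the hg19 build of the measurements, 5′ to 3′ on the strand of the gene: chr19:46229492-46229741 (plus) for IGFL1 and chr7:45921273-45921522 (minus) for IGFBP3. Capitals mark the matches to the motifs searched.
IGFL1: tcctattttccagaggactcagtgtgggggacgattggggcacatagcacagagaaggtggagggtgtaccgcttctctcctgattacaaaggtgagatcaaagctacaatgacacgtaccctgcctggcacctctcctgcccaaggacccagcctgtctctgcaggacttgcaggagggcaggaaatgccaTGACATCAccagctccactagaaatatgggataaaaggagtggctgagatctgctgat
IGFBP3: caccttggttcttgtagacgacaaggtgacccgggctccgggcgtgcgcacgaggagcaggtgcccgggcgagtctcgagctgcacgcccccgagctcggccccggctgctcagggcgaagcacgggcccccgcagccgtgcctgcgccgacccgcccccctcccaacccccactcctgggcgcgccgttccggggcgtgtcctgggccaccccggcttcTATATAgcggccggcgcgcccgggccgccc
Searched on both strands were the AP-1 motif TGANTCA, the CRE-like motif TGACNTCA, the C/EBP motif TTGCNNAA, the NF-κB motif, and TATAAA and TATATA, the last 2 of which can overlap. The CRE-like motif was chosen after the IGFL1 sequence was seen, so its match there was known beforehand and is no result. Its letters lie in IGFL1 from 58 to 51 bases before the start, and occur in 6.87% of the 35116 promoters of the same length. TATATA was found in IGFBP3, from 30 to 25 bases before the start, and occurs in 3.73% of them. No motif was found in both genes. AP-1, C/EBP, NF-κB and TATAAA letters, held by 6.57%, 9.05%, 9.96% and 10.7% of promoters, were in neither window. The 2 windows also differed in base composition, with 52.8% G or C in IGFL1 and 76.0% in IGFBP3. A match is a string of letters and shows no binding.

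Among the binding proteins IGFBP3, the main IGF carrier of plasma and the one with the highest mean level here, was lower in knockout cells in every state. IGFBP3 lies on the minus strand of chromosome 7, bases 45951844 to 45960871 (hg19). Wild-type cells on PBS gave 613 RPKM, and those on IL-1α gave 945 and 841 RPKM. Knockout cells gave 143 RPKM on PBS, and 186 and 199.9 RPKM on IL-1α. The highest knockout library was below the lowest wild-type one. Over all genes tested, 8.86% showed that order of all 3 knockout below all 3 wild-type libraries. Knockout minus wild type came to -2.21 ± 0.18 (SE) on IL-1α, 893 ± 73.7 against 193 ± 9.84 RPKM (SD, n = 2 each). Without stimulation it was -2.10, a ratio of 4.29 in favour of wild type (exact 95% interval of the reads 4.20 to 4.38).

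The IL-1α differences of IGFBP3 were smaller and did not pass. Both stimulated libraries were above the unstimulated one in each genotype, by 1.46 times in wild type (0.54 ± 0.21 SE, limma adjusted p = 0.264) and 1.35 times in knockout (0.43 ± 0.21 SE, limma adjusted p = 1). Of all genes tested, 27.5% had both IL-1α libraries above the PBS one in wild type, and 27.8% had this in knockout. The interaction of -0.11 ± 0.30 (SE) had a limma adjusted p of 0.986. IGFBP1, the neighbour of IGFBP3 at a gap of 18.6 kb, had at most 2 reads in any library.

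In limma at an adjusted p below 0.05 IGFL1 and IGFBP3 supplied every call in the set, all in the comparisons they were chosen on. In the wild-type response 1 of the 7 genes tested, IGFL1, passed as higher and 0 as lower. The background over all genes was 0.217%, made up of 0.201% higher and 0.0155% lower. In the knockout response IGFL1 alone passed, as higher, against 0.0696%; 9 genes were higher and 0 lower, and 16 and 5 with the length trend removed. Between genotypes under IL-1α 2 of 7, IGFL1 and IGFBP3, passed as lower in knockout, against 0.155% of all genes called, 0.108% lower and 0.0464% higher. In that comparison the groups did not overlap in 4 of 7: IGFL1 and IGFBP3 lower in knockout (16.3% of all genes), IGFBP4 and IGFBP7 higher (32.4%). On PBS the same pair was lower by at least 2-fold, against 4.11% of all genes, and 0 were higher. These genes were chosen for such differences. The calls on IGFL1 and IGFBP3 are therefore no test of them, and nothing is read from the calls or the shares.

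Not every call held when a setting changed. The IGFL1 call in wild type was lost without a filter on low values and without either wild-type IL-1α replicate, and its call in knockout with a pseudocount of 1, without a filter, without the variance trend, with voom and on leaving out any 1 of the 4 IL-1α libraries. Between genotypes both calls were lost without a filter, without the trend and on leaving out any 1 of those 4, and that of IGFL1 also with a pseudocount of 0.1. The values themselves ran from 3.62 to 4.32, 2.96 to 3.66 and -2.58 to -2.03 for IGFL1, and from -2.30 to -2.12 for IGFBP3. Over the 7 genes the median of knockout minus wild type was 0.06 on IL-1α, against 0.09 over all genes. Rescaling by the median of ratios moved the median of all genes from -0.14 to -0.03 in the wild-type response and from 0.10 to -0.01 in the interaction. On PBS 313 genes were at least 2-fold higher and 531 lower in knockout, and 367 and 264 with the length trend removed.

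**Figure D2:**
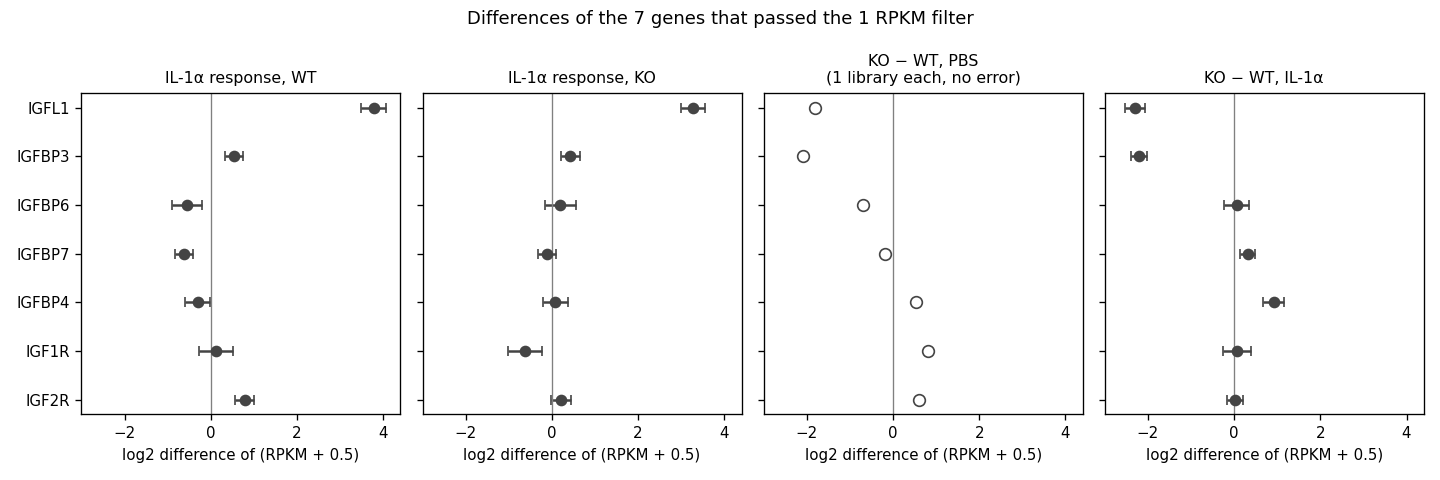
Differences on the log2(RPKM + 0.5) scale of the 7 genes that reached 1 RPKM, with limma standard errors as bars; open points (PBS) compare 1 library with 1 library and have no error. IGFL1 (3.77 and 3.27) stands far to the right in both response panels, and IGFL1 and IGFBP3 alone stand near -2 in both genotype panels.

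IGFBP4, which binds both IGFs and is cut by the protease PAPP-A, had the opposite order from IGFBP3 at a much lower level. The gene lies on the plus strand of chromosome 17, bases 38599676 to 38613982 (hg19). Wild-type cells gave 3.16 RPKM on PBS and 2.48 and 2.47 RPKM on IL-1α. Knockout cells gave 4.82 RPKM on PBS and 4.18 and 6.22 RPKM on IL-1α. Every knockout library was above every wild-type library, an order that 15.7% of all genes tested showed. The difference under IL-1α was 0.92 ± 0.24 (SE), 2.10 times higher in knockout, and did not pass (limma adjusted p = 0.200). The IL-1α difference was -0.30 ± 0.29 (SE) in wild type (limma adjusted p = 0.617) and 0.08 ± 0.29 (SE) in knockout (limma adjusted p = 1), the latter -0.19 without knockout IL-1α replicate 2. The interaction was 0.38 ± 0.41 (SE; limma adjusted p = 0.966).

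IGFBP2, another IGF carrier of plasma, was at the edge of detection. The gene lies on the plus strand of chromosome 2, bases 217524341 to 217529158 (hg19). Reads numbered 4 on PBS and 5 and 2 on IL-1α in wild type, and 26, then 14 and 23, in knockout. In RPKM these are 0.242, 0.310 and 0.109 in wild type and 0.751, 0.646 and 0.780 in knockout. All 3 knockout values were above all 3 wild-type values, an order that 15.7% of the genes tested showed (IGFBP2 was not tested). On IL-1α the exact 95% counting intervals were 0.101 to 0.723 and 0.0132 to 0.394 RPKM in wild type. In knockout they were 0.353 to 1.08 and 0.495 to 1.17 RPKM, so the genotypes overlapped in part. The unstimulated ratio of knockout to wild type was 3.11, with an exact 95% interval of 1.08 to 12.3 for counting error only. The neighbouring gene IGFBP5, with a gap of 7.67 kb, had at most 4 reads.

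IGFBP6, which prefers IGF2 over IGF1, and IGFBP7, a weak IGF binder also found in vessel walls, showed no call. IGFBP6 lies on the plus strand of chromosome 12, bases 53491436 to 53496128 (hg19), with 960 bases of exon. It measured 247 RPKM on PBS and 189 and 149.9 RPKM on IL-1α in wild type, and 153 RPKM on PBS and 133 and 232 RPKM on IL-1α in knockout. The knockout IL-1α pair lay on both sides of the wild-type pair. Its differences were -0.55 ± 0.36 (SE) for the wild-type response (limma adjusted p = 0.462), 0.20 ± 0.36 (SE) for the knockout response (limma adjusted p = 1) and 0.06 ± 0.29 (SE) between genotypes under IL-1α (limma adjusted p = 0.941). Without knockout IL-1α replicate 2 the latter pair became -0.20 and -0.34. With the length trend removed, the wild-type response of IGFBP6 was -0.06. On PBS knockout minus wild type was -0.69, and -0.29 with that trend removed.

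IGFBP7 lies on the minus strand of chromosome 4, bases 57897237 to 57976551 (hg19), with 1122 bases of exon. Wild type gave 39.6 RPKM on PBS and 28.8 and 22.7 RPKM on IL-1α, and knockout 34.7, then 31.6 and 32.2 RPKM. The stimulated libraries were below the unstimulated one in both genotypes, as for 54.3% of all genes in wild type and 36.4% in knockout. The wild-type response was -0.62 ± 0.21 (SE; limma adjusted p = 0.219), and -0.17 with the length trend removed. In knockout the response was -0.12 ± 0.21 (SE; limma adjusted p = 1), and the interaction was 0.50 ± 0.30 (SE; limma adjusted p = 0.966). Between genotypes on IL-1α the difference was 0.31 ± 0.17 (SE; limma adjusted p = 0.441).

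Added together, the 5 binding protein genes amounted to 903 RPKM on PBS and 1165 and 1016 RPKM on IL-1α in wild type. In knockout the sums were 336 RPKM on PBS and 355 and 471 RPKM on IL-1α. The make-up of the sum differed with genotype as well. IGFBP3 made up 67.9% of it on PBS and 81.1% and 82.8% on IL-1α in wild type, but 42.5%, then 52.4% and 42.5%, in knockout. IGFBP6 made up 14.8% to 27.3% in wild type and 37.4% to 49.2% in knockout. The ratio of IGFBP3 to IGFBP6 was accordingly 2.48, 5.01 and 5.61 in wild type and 0.934, 1.40 and 0.863 in knockout. These ratios restate the values above, carry no test, and count transcripts rather than protein.

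**Figure D3:**
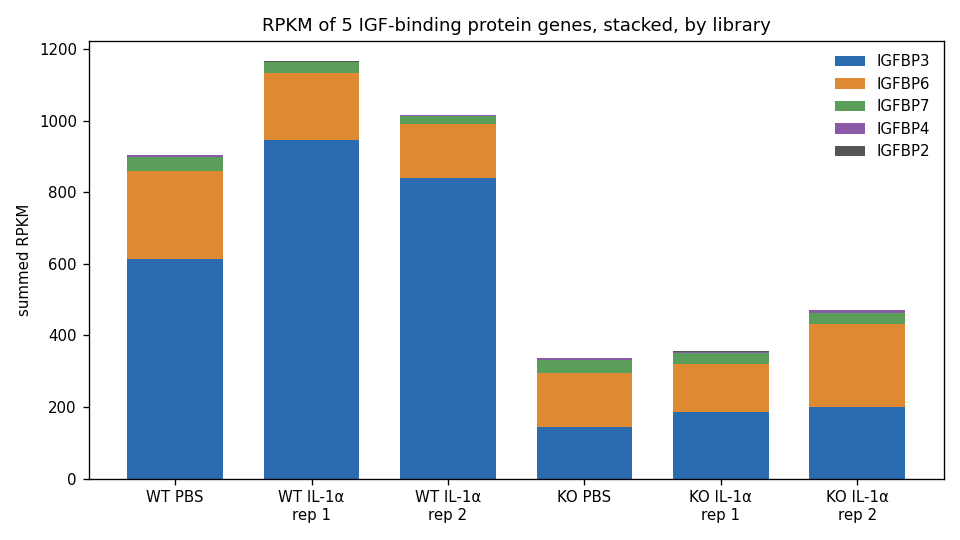
RPKM of IGFBP3, IGFBP6, IGFBP7, IGFBP4 and IGFBP2 stacked for each library (bars start at 0). The wild-type bars reach 903 to 1165 RPKM and the knockout bars 336 to 471 RPKM, with the IGFBP3 segment making most of the difference.

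The receptors showed no call in any comparison. IGF1R, the signalling receptor (chromosome 15, 99191768 to 99507759, plus strand, hg19; 12209 bases of exon), measured 9.88 RPKM on PBS and 8.42 and 13.7 RPKM on IL-1α in wild type. In knockout it measured 17.7 RPKM on PBS and 14.7 and 8.69 RPKM on IL-1α. The replicates on IL-1α lay widely apart, and their ranges overlapped between genotypes. The response was 0.12 ± 0.39 (SE) in wild type (limma adjusted p = 0.902) and -0.62 ± 0.39 (SE) in knockout (limma adjusted p = 1), and the genotype difference under IL-1α was 0.07 ± 0.32 (SE; limma adjusted p = 0.932). Without knockout IL-1α replicate 2 the knockout response was -0.26 and the genotype difference 0.44. Unstimulated, knockout exceeded wild type by 0.81, and by 0.39 with the length trend removed.

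IGF2R, the scavenger of IGF2 that also sorts lysosomal enzymes tagged with mannose 6-phosphate (chromosome 6, 160390131 to 160532534, plus strand, hg19; 13992 bases of exon), had closer replicates. Wild type gave 8.02 RPKM on PBS and 12.4 and 16.1 RPKM on IL-1α, and knockout 12.4, then 13.8 and 15.0 RPKM. Wild type on PBS was the lowest of the 6. The response was 0.78 ± 0.23 (SE) in wild type (limma adjusted p = 0.183) and 0.20 ± 0.23 (SE) in knockout (limma adjusted p = 1), with an interaction of -0.58 ± 0.32 (SE; limma adjusted p = 0.966). Under IL-1α the genotypes differed by 0.02 ± 0.19 (SE; limma adjusted p = 0.968). The unstimulated difference of 0.60 became 0.15 with the length trend removed.

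In the interaction 0 of 12925 genes passed (0%), with 567 at an unadjusted p below 0.05, and voom weights also gave 0. Without a filter on low values 87 passed, none of them among the 7 genes of the set that reached 1 RPKM. The unadjusted p of the 7 genes ran from 0.124 for IGF2R to 0.729 for IGFBP3.

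The rest of the IGF axis was read from 10 lists with 58 genes, all in the table, of which 39 reached 1 RPKM. The ligands themselves were all but absent: IGF1 and INS were at 0 reads in every library. IGF2 had 1, 9 and 22 reads in wild type (unstimulated, then IL-1α) and 9, 13 and 31 reads in knockout, at most 0.263 RPKM. The insulin receptor INSR reached 0.655 RPKM at most and its relative INSRR was at 0. Of the other carriers, IGFALS, the third partner of the plasma IGF complex, had at most 4 reads. The signalling genes downstream of the receptors were measured well, with all 16 genes of the PI3K, AKT, FOXO and mTOR list and 6 of 8 adaptors past 1 RPKM. The most abundant of that list were the kinase AKT1 (47.1 to 63.8 RPKM) and RHEB, the small GTPase that activates mTOR (18.3 to 24.3 RPKM), at 0.23 and -0.11 in knockout against wild type under IL-1α (limma adjusted p = 0.580 and 0.814).

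None of these 39 genes passed in a tested comparison in limma: 0 higher and 0 lower in each, while 6 had an unadjusted p below 0.05 in the wild-type response, 2 in the knockout response, 8 between genotypes under IL-1α and 0 in the interaction. These are 15.4%, 5.13%, 20.5% and 0% of the 39, beside 18.1%, 3.58%, 14.9% and 4.39% of all genes tested. Their median difference of knockout from wild type was 0.14 under IL-1α and 0.24 without it, against 0.09 and -0.01 over all genes. None of the 39 was under 1 kb, and with the length trend removed the medians were 0.01 and 0.09, against -0.01 and 0.01. Without stimulation 3 were at least 2-fold higher in knockout and 0 lower, against 2.42% of all genes higher and 4.11% lower. The 3 were STC1, HTRA1 and GRB10, and HTRA1 fell short of 2-fold with a pseudocount of 1.

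STC1 encodes stanniocalcin-1, an inhibitor of PAPP-A, the protease that cuts IGFBP4. On PBS it had 3 reads in wild type and 154 in knockout, a ratio of 24.6 (exact 95% interval 8.25 to 120, counting error only). In RPKM it stood at 0.0460, 0.523 and 0.530 in wild type (unstimulated, then IL-1α) and at 1.14, 3.95 and 3.62 in knockout. Every knockout library was above every wild-type library, as for 15.7% of all genes tested. The difference under IL-1α was 2.06 ± 0.24 (SE; limma adjusted p = 0.0516), just short of the threshold. It passed with a pseudocount of 1 (1.65, limma adjusted p = 0.0421), with voom weights (2.82, limma adjusted p = 0.0142), with the filter at 2 libraries (2.06, limma adjusted p = 0.0287) and with the replicate block (2.06, limma adjusted p = 0.0494). It did not pass with a pseudocount of 0.1 (limma adjusted p = 0.0992), without a filter (0.291), or on leaving out 1 library (0.104 to 0.932), nor with rescaling, no variance trend or the length trend removed (0.0524 to 0.0580).

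GRB10 encodes an adaptor that dampens insulin and IGF1 receptor signalling. It read 1.24, 1.33 and 1.91 RPKM in wild type (unstimulated, then IL-1α) and 5.43, 6.998 and 4.16 RPKM in knockout. The genotypes did not overlap, and 15.7% of all genes tested had this order. Its difference under IL-1α was 1.49 ± 0.30 (SE; limma adjusted p = 0.161). HTRA1, a secreted serine protease that cuts IGFBP5, read 3.71, 1.46 and 1.61 RPKM in wild type and 8.27, 6.48 and 3.58 RPKM in knockout, so that the lowest knockout library lay below the unstimulated wild type (1.39 ± 0.29 SE under IL-1α, limma adjusted p = 0.176).

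In the other lists nothing was called. The mannose 6-phosphate sorting genes, which share that task with IGF2R, had 4 of 7 above and 3 below 0 in knockout against wild type under IL-1α (median 0.09); M6PR, the smaller receptor, lay at 41.1 to 50.7 RPKM and GNPTG, a subunit of the tagging enzyme, at 9.85 to 18.3 RPKM. The IGF2 mRNA-binding proteins IGF2BP2 (16.9 to 24.4 RPKM) and IGF2BP3 (12.7 to 15.6 RPKM) lay at -0.09 and -0.06 in that comparison. Of the CCN matricellular proteins, once counted as IGFBP relatives, CYR61 lay at -0.76 (limma adjusted p = 0.323) and NOV at 0.01 (limma adjusted p = 0.997).

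**Figure D4:**
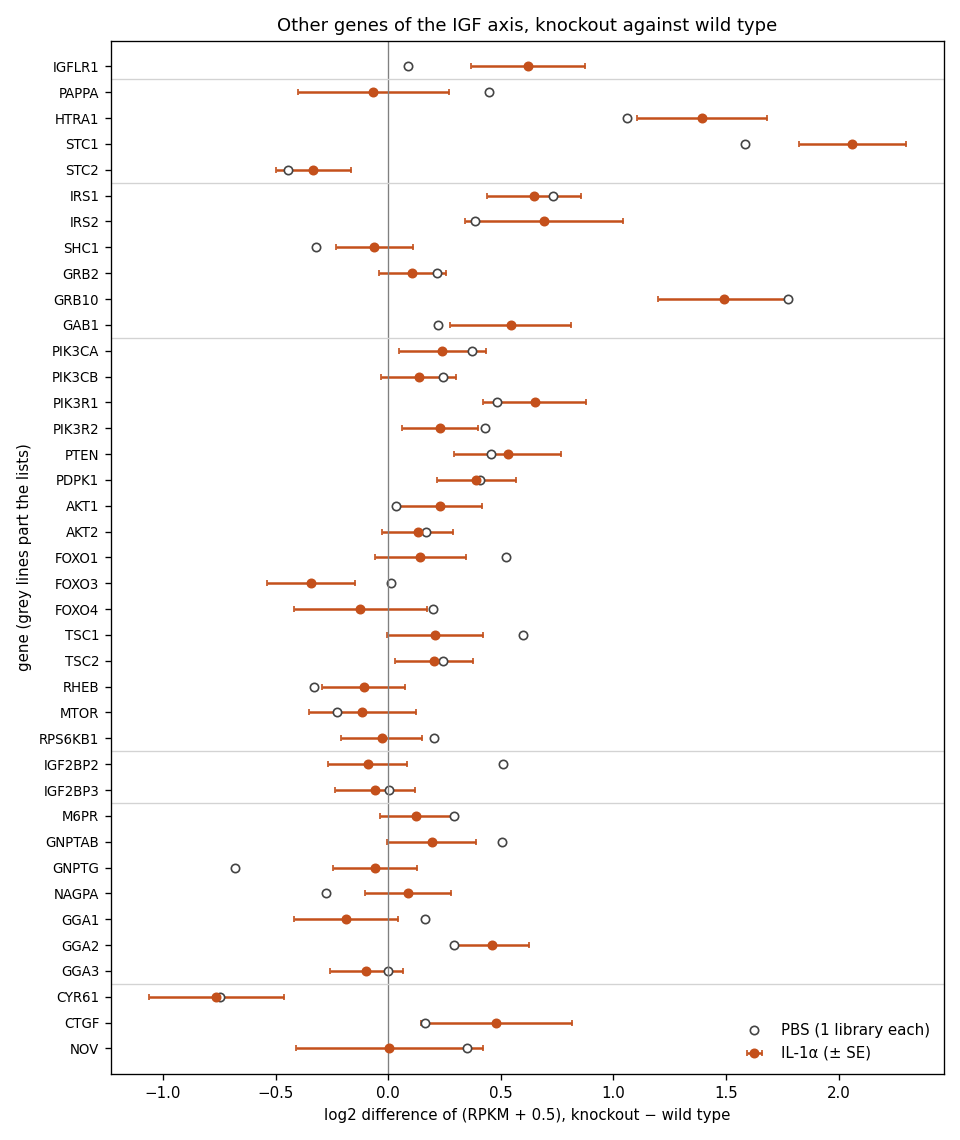
Difference of knockout from wild type on the log2(RPKM + 0.5) scale for the 39 other IGF-axis genes that reached 1 RPKM, with IL-1α (filled, limma SE) and with PBS (open, 1 library each). STC1, GRB10 and HTRA1 stand apart to the right in both conditions, and the remaining genes lie between -0.76 and 0.73.

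Genes with the pattern most like each member were sought among 8248 genes (8249 for IGFBP4) with a mean of at least 5 RPKM (antisense, LOC, LINC and pseudogene entries left out), by the root-mean-square difference of log2(RPKM + 0.5) profiles over the 6 libraries, each centred on its own mean. For IGFL1 they were the neutrophil chemokine CXCL6 (0.54), the plasminogen activator PLAT (0.59) and the lipocalin LCN2 (0.60). CXCL6 measured 9.48 RPKM on PBS and 160.1 and 109 RPKM on IL-1α in wild type, and 3.15, then 13.1 and 24.8 RPKM, in knockout. For IGFBP3 they were the wound keratin KRT16 (0.33), TNFRSF11B (osteoprotegerin, 0.35) and PTGS2, an inducible prostaglandin synthase (0.37). TNFRSF11B read 11.3, 21.6 and 18.2 RPKM in wild type and 1.30, 2.25 and 2.197 RPKM in knockout. IGFBP4 was nearest to NEIL3 (0.08), TMEM38B (0.10) and ABI2 (0.10), and IGF1R to RETREG3 (0.08), PTCH1 (0.10) and CHAF1A (0.13). All these genes were picked on the same 6 libraries, so a likeness to the member follows from the choice. The IGF1R neighbours thus shared its gap between the knockout IL-1α replicates, RETREG3 with 15.5 and 9.01 RPKM. The other 3 genes tested spanned less than 1 on the log2 scale over the 6 libraries and were not matched.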

How the data were processed

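Per the submitters' processing notes, reads were handled with bcl2fastq (2.20.0.422), STAR and HOMER on hg19; per the file headers, the authors' deposited RPKM came from HOMER's analyzeRepeats with exon counting and 1 line per gene. The column names write FPKM. Strand setting and other versions are not given in the sources used here, so antisense overlap cannot be told apart. Exon lengths are those deposited. Members and lists were chosen with earlier results of these data known.

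Depth was recovered as the read number that turned values of 0.02 to 1 RPKM into whole reads (tolerance 0.1 read; 97.9% to 99.8% whole); rebuilt reads served for exact intervals (counting error only) and voom. On the scale log2(RPKM + 0.5), limma (version 3.58.1, run in R 4.3.3) was fitted to the 12925 genes of at least 1 RPKM in 1 library, with 1 coefficient per group, trended empirical Bayes, Benjamini-Hochberg at 0.05 over all genes. Only the 2 IL-1α groups supply residual variance (2 residual and 4.2 prior degrees of freedom). The fit was tested on simulated data for the wild-type response. Unstimulated genotypes, 1 library each, were compared by fold (2-fold, 1 RPKM) without a test.

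Named genes were the 8 members, list genes passing or 2-fold apart, otherwise the 2 most abundant of a list, and the 3 genes of nearest pattern to members spanning at least 1 on the log2 scale. IGFALS and IGF2 were named after their values were seen, and 1 list gene is not reported here. Promoters, from RefSeq on GRCh38.p14, matched 7 of the 8 members; the 250 bases before the start were searched, with the CRE-like motif chosen after the IGFL1 sequence was seen. Alternatives were pseudocounts, filters, scaling, variance trend, voom, length trend, replicate block and leaving out each IL-1α library.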

Additional observations from a re-analysis of the deposited data

How the results depend on the processing

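Of 520 values of the 7 members tested and 3 named axis genes over the alternatives in the tested comparisons, 499 kept their direction. IGFL1 and IGFBP3 kept theirs throughout, though their calls did not all hold, as given with them; the cause was not tested.

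Genes passing were 28 in the wild-type response, 9 in the knockout response, 20 between genotypes under IL-1α and 0 in the interaction. Without a filter on low values these became 49, 65, 0 and 87, of which 2 and 1 were higher in the first 2 and 47 and 64 lower. With 1 RPKM asked in 2 libraries the first 3 became 100, 38 and 76, with voom 11, 2 and 55, and with the length trend removed 96, 21 and 40. Rescaling gave 58 in the wild-type response; a pseudocount of 1 gave 5 and no variance trend 4 in the knockout response; a pseudocount of 0.1 gave 7 and no trend 0 between genotypes. Leaving out 1 library gave 0 to 46, 0 and 0, from 1 residual degree of freedom and with the lone library assumed to vary like the other pair. On PBS the 844 genes at least 2-fold apart ran from 628 to 1106. Same-numbered libraries share only a number (correlation of deviations 0.0086); a replicate block gave 81, 18, 58 and 0 in these 4 comparisons.

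Values near 0 turned. After rescaling, IGFBP6, IGF1R and IGF2R lay at -0.033, -0.014 and -0.067 between genotypes under IL-1α, and GRB10 at 0.0011 (-0.0040 otherwise) in the knockout response. With the length trend removed, IGF1R and IGF2R lay at -0.12 and -0.18 between these genotypes, and IGF1R at -0.10 in the wild-type response. The STC1 interaction of 0.48 became -0.45 with a pseudocount of 0.1 and -1.58 with voom; its unstimulated wild-type level rests on 3 reads. Leaving out 1 library gave, between genotypes under IL-1α, -0.34 to 0.46 for IGFBP6, -0.29 to 0.44 for IGF1R and -0.16 to 0.20 for IGF2R. It gave -0.22 to 0.45 for IGF1R in the wild-type response. In the knockout response it gave -0.19 to 0.34 for IGFBP4, -0.20 to 0.60 for IGFBP6 and -0.35 to 0.34 for GRB10. For the interaction it gave -0.051 to 0.72 for HTRA1 and -0.62 to 0.061 for GRB10.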
